A study of Mus musculus with 12 samples.

Results

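The B cell transcripts described here are those of 9 genes (Cd79a, Cd79b, Ms4a1, Pax5, Ebf1, Blk, Fcrla, Jchain and Cr2), followed through purified CD8+ T cells of mice with and without mature B cells to see which of them a CD8 sample still carried. The genes were chosen by name, out of 22911 named genes with a probe on the array. All 9 genes had a probe, and 5 of them (Cd79a, Cd79b, Pax5, Jchain and Cr2) had 1 that rose clear of background on 2 or more of the 12 arrays and so entered the tests. Each array was hybridised with Cy3-labelled complementary RNA of 1 sample.

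The groups were as follows. Total CD8+ T cells came from gut-draining mesenteric nodes (MLN) and from peripheral lymph nodes (PLN), with 1 uMT array, 1 AID KO array and 2 WT arrays for each site. Naive (CD44low) CD8+ T cells were taken from PLN in Sca1p and Sca1m sorted fractions, with 1 uMT array and 1 AID KO array for each fraction. All mice were labelled female C57BL/6, and bead enrichment was followed by flow cytometric sorting. The germline uMT mutation removes membrane-bound mu heavy chain, so no mature B cells form, while AID KO and WT mice have B cells. The uMT arrays are therefore the floor for B cell transcripts here. Genotypes are given as labelled. A check of the AID KO label with 1 probe went against that label on all 4 arrays that carry it, and whether this probe can report on the mutation is not known here. AID KO therefore means only that an array is labelled so, and each direction given for AID KO below carries this doubt. The uMT label was not checked. The submitters describe a design with no replicates and the labels name no separate animals, so an error below measures the spread between these arrays or their departure from the additive terms of the fit.

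Levels are log2 processed intensities minus the 75th percentile of the array, so 0 is that percentile. Each spot also carries the scanner software's flag for a signal well above background, and levels without that flag are given only as measured and have no order. Between 50.1% and 56.8% of the spots of an array carried the flag, the 75th percentile of the processed intensity lay between 423.9 and 773.5, and no spot was saturated. Slide 1 held WT PLN replicate 1, WT MLN replicate 1, AID KO PLN and uMT MLN, slide 2 held the other total-cell arrays, and slide 3 held the 4 naive arrays, so total and naive cells were not compared. All 14 CD8 T cell identity genes listed were well above background on 12 of 12 arrays, with Cd8b1, a chain of the CD8 coreceptor, at 7.69 to 8.20.

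B cells sense antigen through surface immunoglobulin paired with Cd79a and Cd79b, whose cytoplasmic tails signal together with kinases such as Blk. Ebf1 and Pax5 are the transcription factors that commit a progenitor to the B lineage and keep it there. Ms4a1 (CD20) and Cr2 (complement receptor type 2) are surface proteins of mature B cells, and Cr2 is also carried by follicular dendritic cells. Fcrla is an Fc receptor-like protein kept inside B cells. Jchain joins immunoglobulin subunits into polymeric IgA and IgM, and it is abundant in the plasma cells that such tissues as the gut and its draining nodes hold.

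The promoter stretches of Jchain and Cd79a are shown because these genes gave the sharpest contrasts between samples, by site for Jchain and by sorted fraction for Cd79a. They are the 250 bases before each gene's start, from RefSeq on GRCm38.p6, given 5′ to 3′ on the gene's strand. Jchain lies on the minus strand (chr5:88527898-88528147) and Cd79a on the plus strand (chr7:24897247-24897496).
Jchain: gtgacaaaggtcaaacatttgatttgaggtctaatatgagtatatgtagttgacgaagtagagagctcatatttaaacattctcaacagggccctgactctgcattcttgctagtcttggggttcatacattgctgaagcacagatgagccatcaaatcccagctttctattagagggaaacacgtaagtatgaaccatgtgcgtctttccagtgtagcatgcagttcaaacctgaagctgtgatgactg
Cd79a: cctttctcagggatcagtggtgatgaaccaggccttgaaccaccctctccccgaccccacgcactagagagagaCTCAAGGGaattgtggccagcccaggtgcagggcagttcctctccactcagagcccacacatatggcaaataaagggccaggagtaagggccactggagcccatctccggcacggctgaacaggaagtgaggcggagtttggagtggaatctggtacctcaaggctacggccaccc
The letters CCCNNGGG, the core bound by Ebf1, and ATGCAAAT, the octamer bound by Oct factors, were searched on both strands in windows of 250 bases before to 50 after the start. RefSeq windows matched for 6 of the 9 genes (Cd79a, Pax5, Fcrla, Jchain, Cr2 and, with 2 windows, Ebf1), and neither motif was found in any of them, while CCCNNGGG occurred in 13.7% and ATGCAAAT in 1.75% of 32544 windows. Capitals mark CTCNNGGG, the Ebf1 core with its second letter changed to T, which was searched after the sequences had been read. It stood in the Cd79a window at position -176 from the start and in the Jchain window at position 11, beyond the stretch printed, and in 24.7% of all windows. A match in letters is no evidence of binding.

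**Figure D1:**
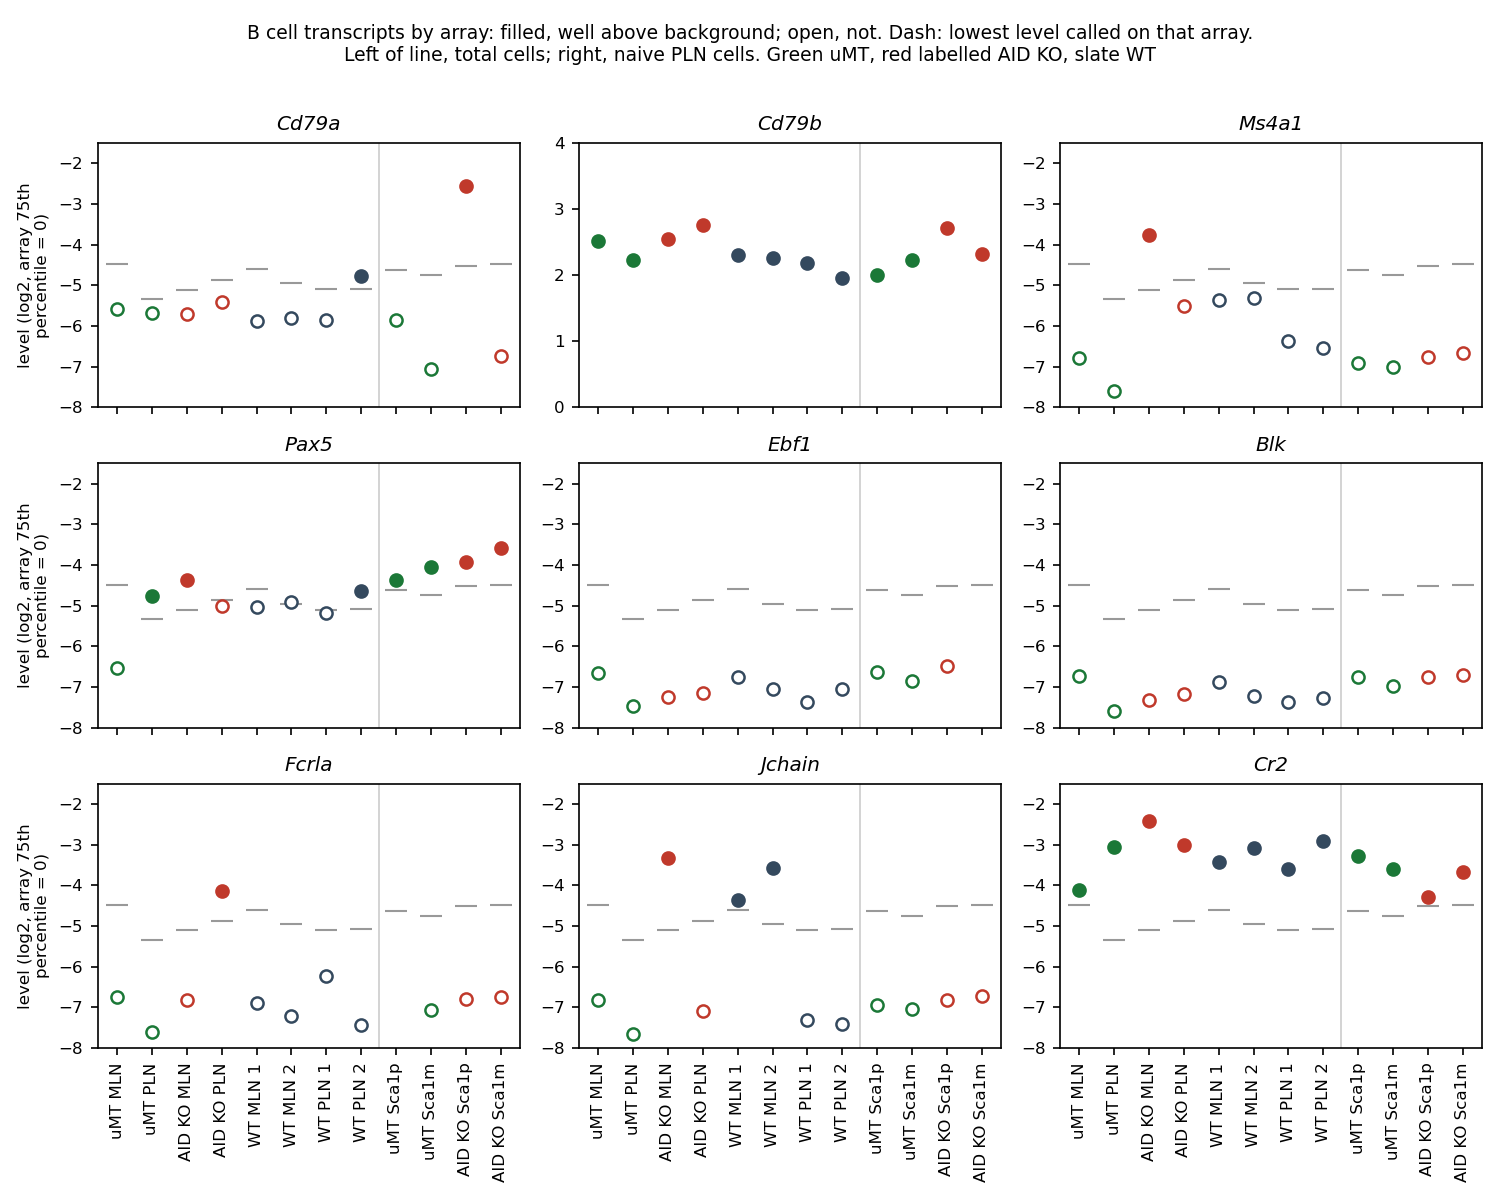
Level of each B cell transcript (y axis, log2, the array's 75th percentile set to 0) on the 12 arrays (x axis), with uMT in green, AID KO in red and WT in slate. Filled points were well above background and dashes mark the lowest level so called on that array; Cd79b and Cr2 are filled on all 12 arrays, Ebf1 and Blk on none.

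The 9 transcripts fell into 3 kinds. Cd79b and Cr2 were well above background on all 12 arrays, uMT included. Ebf1 and Blk were not well above background on any array. Pax5 was called on 7 arrays, Jchain on 3, Cd79a on 2, and Ms4a1 and Fcrla on 1 each, so 5 of the 9 differed between arrays in this respect, as 4106 of all 22911 named genes did. In bulk RNA, fewer cells of a type and less RNA per cell cannot be told apart.

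Jchain carried the clearest pattern. It was not well above background in uMT MLN (-6.81), but it was at -3.32 in the array labelled AID KO MLN and at -4.37 and -3.58 in WT MLN. In PLN it stood at -7.65 in uMT, at -7.09 in AID KO and at -7.31 and -7.42 in WT, none well above background. All 3 MLN arrays of mice with B cells were thus above background, and the uMT MLN array and all 4 PLN arrays were not, with no overlap between these sets. The 4 naive PLN arrays, at -6.94 and -7.04 in uMT and -6.81 and -6.73 in AID KO for Sca1p and Sca1m, were not above background either.

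Over the 3 MLN arrays of AID KO and WT the level averaged -3.76, at least 2.39-fold higher than in the PLN arrays of the same genotypes (mean -7.27). Against the uMT MLN array it was at least 1.66-fold higher, and over WT MLN alone at least 1.42-fold higher than in uMT MLN. These bounds set the dim arrays at the lowest signal called well above background there, and they have no test because the sets were picked after the values were seen. With all 4 arrays of each site, MLN was at least 1.49-fold higher than PLN (measured means -4.52 and -7.37). In the limma fit this difference was 2.85 ± 0.35 (SE; adjusted p = 0.0804) and did not pass. Without uMT MLN, or without uMT PLN, it was 3.40 and passed (limma, adjusted p = 0.043 in both). Within slides, MLN exceeded PLN by 1.61 on slide 1, which holds uMT MLN, and by 4.09 on slide 2, and the WT pair alone differed by 2.93 and 3.84. The normexp background correction, which raises all dim signals, lowered the fitted difference to 0.48 (adjusted p = 0.0983).

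One other gene on the B cell lists was called on exactly those 3 arrays. Fcrl1, an Fc receptor-like protein of the B cell surface, stood at -4.65 in uMT MLN, not well above background, at -3.86 in AID KO MLN and at -4.28 and -4.00 in WT MLN. In PLN it was not called, at -5.57 in uMT, -5.50 in AID KO, and -5.33 and -5.08 in WT. Of the 279 named genes called on exactly 3 of the 12 arrays, Jchain and Fcrl1 were the only 2 called on these. The set of arrays was taken from the values of Jchain. The lowest level called was -4.48 on uMT MLN, -4.60 and -4.95 on the WT MLN arrays and -5.11 on AID KO MLN. Fcrl1 in uMT MLN (-4.65) thus lay above the lowest level called on WT MLN replicate 2 and on AID KO MLN. Its missing call in uMT MLN therefore shows no clear loss there. MLN exceeded PLN for Fcrl1 by 1.18 ± 0.14 (SE), which missed the threshold (limma, adjusted p = 0.0733).

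Ms4a1 was called on 1 array, the one labelled AID KO MLN, at -3.77. It was at -6.78 and -7.61 in uMT MLN and PLN, at -5.50 in AID KO PLN, at -5.37 and -5.31 in WT MLN and at -6.36 and -6.54 in WT PLN, none well above background. The AID KO MLN value was at least 2-fold above the WT MLN arrays (measured mean -5.34), with no test, since 1 array stands against 2. All 4 naive arrays were between -7.00 and -6.67 and not called.

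Cd79a was called on 2 arrays, both of PLN cells but of different genotypes, 1 naive and 1 total. It reached -2.56 in naive Sca1p cells labelled AID KO, against -6.74 in AID KO Sca1m, -5.86 in uMT Sca1p and -7.05 in uMT Sca1m, all 3 not well above background. In total cells it was called in WT PLN replicate 2 (-4.78), next to -5.58 and -5.68 in uMT MLN and PLN, -5.71 and -5.41 in AID KO MLN and PLN, and -5.88, -5.80 and -5.85 in the other WT arrays. The second WT PLN array thus differed from the first by 1.08, while the WT MLN arrays were 0.07 apart.

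The Sca1p AID KO level was at least 3.78-fold that of Sca1m AID KO and at least 4.17-fold that of Sca1p uMT, each 1 array against 1 and so without a test. Over both genotypes, Sca1p naive cells (mean -4.21) were at least 1.32-fold above Sca1m cells (mean -6.89). The fit gave 2.69 ± 0.70 (SE; limma, adjusted p = 0.383) for that difference, which was 1.19 without either AID KO array and 4.18 without either uMT array. For uMT against AID KO naive cells, the measured means were -6.45 and -4.65, at least 1.02-fold lower in uMT (fitted -1.80 ± 0.70, SE; limma, adjusted p = 0.539). It was -0.30 without AID KO Sca1p or uMT Sca1p, and -3.30 without AID KO Sca1m or uMT Sca1m.

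MHC class II genes were also detected most often on AID KO Sca1p among the naive arrays. Of the 5 genes of that list that varied in detection, it held 3 (H2-Ab1, H2-Eb1 and Ciita), against 1 in AID KO Sca1m, 1 in uMT Sca1p and 0 in uMT Sca1m. Of all named genes that varied in detection, AID KO Sca1p held 31.0% and AID KO Sca1m 26.1%, while uMT Sca1p held 29.3% and uMT Sca1m 32.3%. Blnk, the adaptor downstream of the B cell receptor, was called there too, at -3.89, and in no other naive array. Spib, a transcription factor on the same B cell list, went the other way. Among naive arrays it was called only on uMT Sca1p (-3.82), and it stood at -4.96 on AID KO Sca1p. Of the 14 other B cell genes that varied in detection, AID KO Sca1p held 2, as did uMT Sca1p and uMT Sca1m, and AID KO Sca1m held 1. Ms4a1, Jchain, Ebf1, Blk and Fcrla were not called on AID KO Sca1p. Some markers of other cells were called on it as well. Cd209a, a lectin of dendritic cells named here after its value was seen, was called on it alone, at -1.98. AID KO Sca1p also held 15.3% of the 1689 named genes called on a single array, the highest share of the 12 arrays. Of the 7 NK and innate-like lymphocyte genes that varied it held 4, against 1 on each other naive array. In Sca1p versus Sca1m 0 of 7 tested genes of that list passed (limma). At an unadjusted p under 0.05 (limma) were 4 of them, against 8.24% of all features, and they went both ways. Klra8 (-1.24), Klrb1c (-1.42) and Zbtb16 (-1.01) were lower in Sca1p, and Eomes (0.82) was higher. For neutrophil genes these counts were 0 and 3 of 4, with S100a8 lower (-2.65) and Elane (0.75) and Camp (0.36) higher. Each naive array held 2 of the 4 neutrophil genes that varied. The part of other cells in the Cd79a value was not tested.

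**Figure D2:**
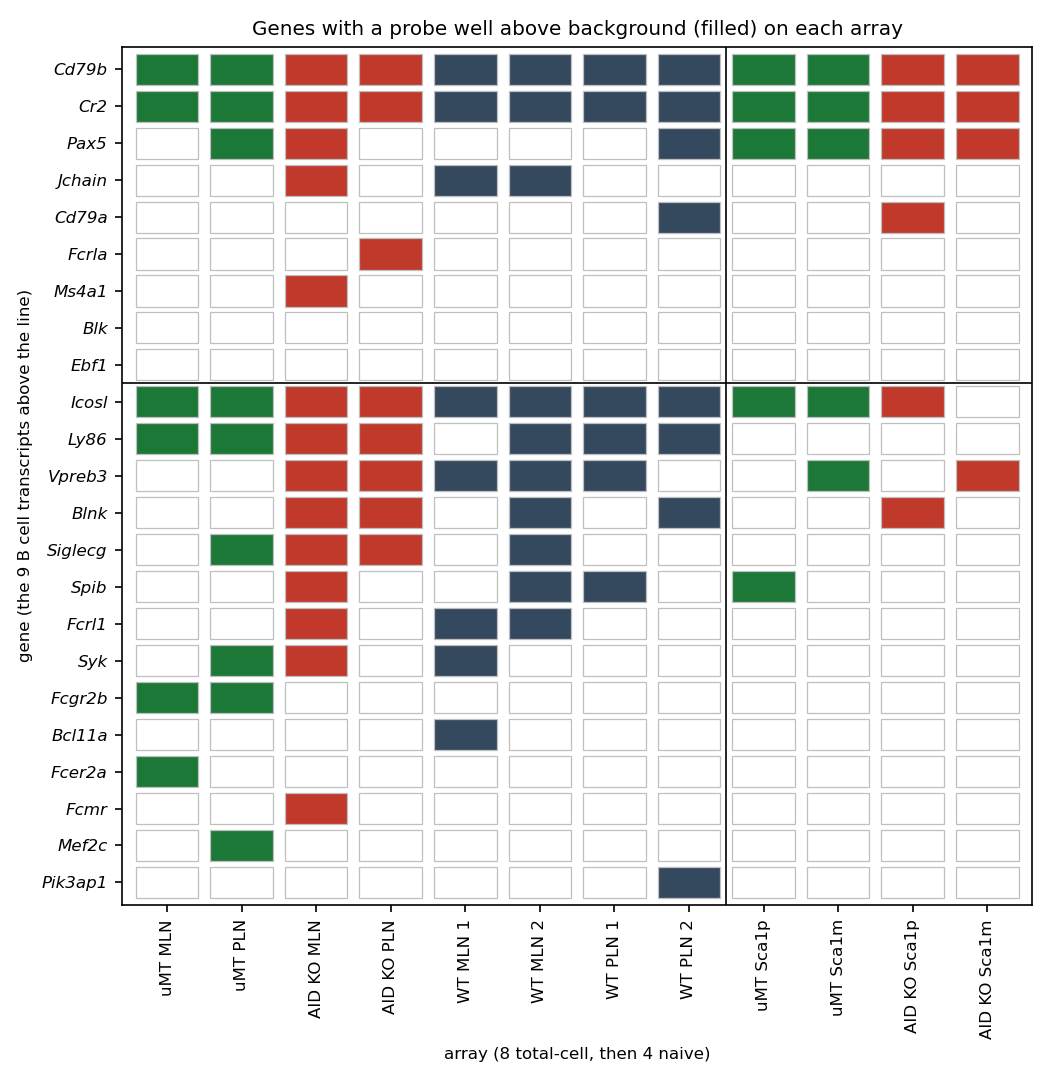
Genes with a probe well above background on each array (filled; uMT green, AID KO red, WT slate), for the 9 B cell transcripts above the line and for the 14 other B cell genes that varied in detection below it. The AID KO MLN column is filled for 5 of the 9 and for 9 of the 14, and Jchain and Fcrl1 are filled on the same 3 arrays.

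Fcrla was called on the array labelled AID KO PLN, at -4.13, and on no other array. In the other total-cell arrays it lay at -6.75 and -7.60 in uMT MLN and PLN, at -6.83 in AID KO MLN, at -6.89 and -7.21 in WT MLN, and at -6.23 and -7.44 in WT PLN. The AID KO PLN array was at least 1.94-fold above the WT PLN arrays (measured mean -6.83), without a test. The 3 naive arrays with a value were between -7.07 and -6.75, and the spot on the uMT Sca1p array was left out for its outlier flag.

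The lineage factor Ebf1 gave no signal above background with either of its 2 probes, 1 of them lying between -7.46 and -6.48 with a median of -7.05. Blk lay between -7.59 and -6.71. In total cells Ebf1 lay between -7.46 and -6.65 in uMT and between -7.38 and -6.75 in WT, and Blk between -7.59 and -6.73 in uMT and between -7.38 and -6.87 in WT, so the groups overlapped. At this sensitivity no difference between genotypes was detectable for either gene.

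Pax5, the other lineage factor, was called on 7 arrays, unevenly over the slides. It was called on 0 of 4 arrays of slide 1, 3 of 4 of slide 2 and 4 of 4 of slide 3. Of all named genes that varied in detection, slide 1 arrays held 19.4% to 34.1% and slide 2 arrays 39.3% to 50.6%. Slide 3 arrays held 26.1% to 32.3%. They are all the naive arrays, so slide and cell type cannot be told apart there. In total cells it was at -6.53 and -4.76 in uMT MLN and PLN, at -4.36 and -5.01 in AID KO MLN and PLN, at -5.04 and -4.91 in WT MLN and at -5.17 and -4.63 in WT PLN. The naive arrays were at -4.38 and -4.06 in uMT and at -3.92 and -3.59 in AID KO, for Sca1p and Sca1m, all well above background. The uMT MLN array was not called, but uMT PLN and both uMT naive arrays were, so this probe gave signal in mice without mature B cells. Compared with WT on a shared slide, uMT differed by -0.13 in PLN, where both arrays were called. In MLN it differed by -1.48 as measured, but neither array was called, so this is no measured fold.

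Cd79b varied by 0.80 log2 units between its lowest and its highest array. In total cells it stood at 2.52 and 2.23 in uMT MLN and PLN, at 2.54 and 2.76 in AID KO MLN and PLN, at 2.30 and 2.26 in WT MLN and at 2.18 and 1.96 in WT PLN. In naive cells it was 2.0 and 2.23 in uMT and 2.72 and 2.32 in AID KO, for Sca1p and Sca1m. Groups of total cells averaged 2.38 ± 0.20 in uMT (SD, n = 2), 2.65 ± 0.16 in AID KO (SD, n = 2) and 2.17 ± 0.15 in WT (SD, n = 4). In total cells both uMT arrays lay within the range of the AID KO and WT arrays. In naive cells uMT minus AID KO was -0.72 for Sca1p and -0.09 for Sca1m. The probe thus gave signal in mice without mature B cells.

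Cr2 was called on all 12 arrays by 1 of its 3 probes. That probe read -4.11 and -3.06 in uMT MLN and PLN, -2.41 and -3.02 in AID KO MLN and PLN, -3.42 and -3.08 in WT MLN and -3.59 and -2.92 in WT PLN. In naive cells it read -3.29 and -3.60 in uMT and -4.28 and -3.67 in AID KO, for Sca1p and Sca1m. The probes disagreed. A second one was called on 3 arrays (uMT PLN, AID KO Sca1p and WT PLN replicate 2) and was highest on AID KO Sca1p, at -3.35, where the first was lowest, and the third was called on none. Signal in uMT cells and this disagreement limit what the used probe says of Cr2.

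None of the 5 transcripts that entered the fit passed in any of the 6 comparisons (limma, adjusted p under 0.05 over 25738 features). For uMT versus WT total cells the count was 0 of 5, against 0.035% of all features, with 2 at an unadjusted p under 0.05, as 17.6% of all features were. For uMT versus AID KO total cells it was 0 of 5 against 0.307%, with 3 at an unadjusted p under 0.05 (12.2% of all features). Naive uMT versus AID KO cells gave 0 of 5 against 0.354%, with 1 unadjusted (8.81% of all features). AID KO versus WT total cells gave 0 of 5 against 0.878%, with 2 unadjusted (14.3% of all features). MLN versus PLN gave 0 of 5 against 0.109%, and Sca1p versus Sca1m 0 of 5 against 0.0155%, with 1 unadjusted in each (9.1% and 8.24% of all features). With so few features called in all, a count of 0 among 5 is no result about these genes.

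**Figure D3:**
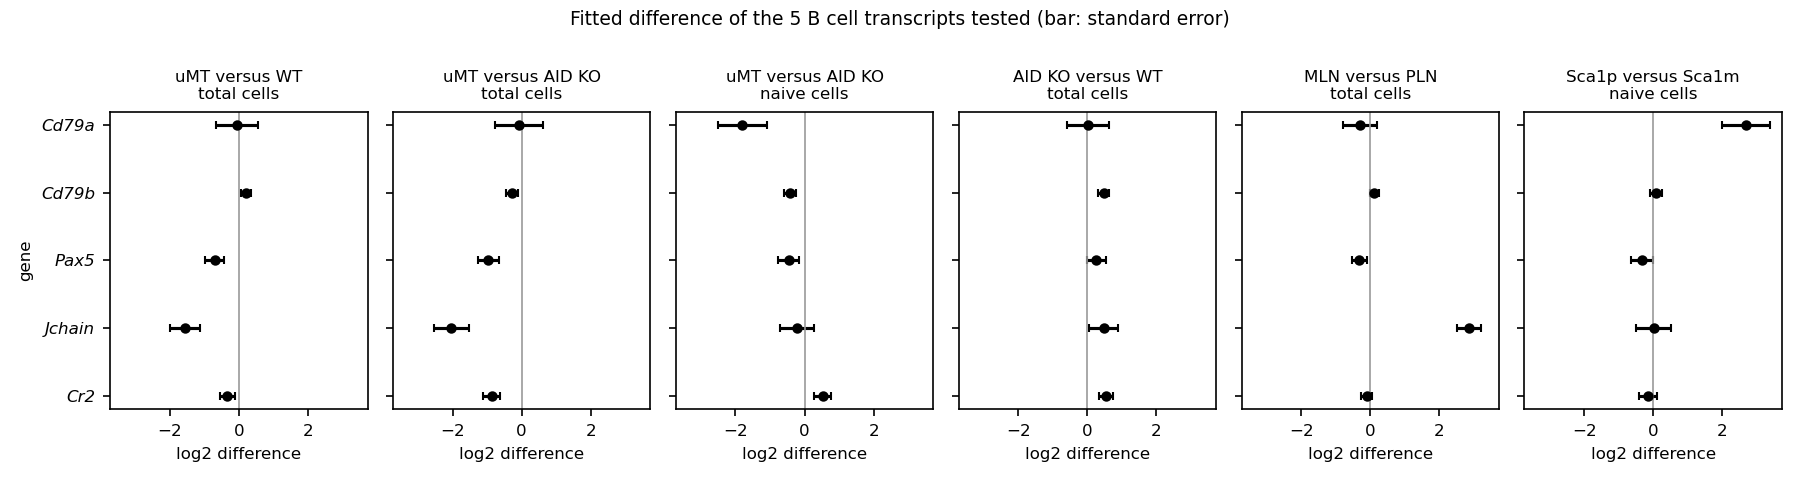
Fitted log2 difference (x axis) of the 5 B cell transcripts tested (y axis) in the 6 comparisons, first group minus second, with bars of 1 standard error. Jchain in MLN versus PLN (2.85) and Cd79a in Sca1p versus Sca1m (2.69) lie farthest from 0, and no value passed the adjusted threshold.

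The sizes were as follows. In uMT versus WT total cells, Jchain differed by -1.56 ± 0.43 (SE, adjusted p = 0.189), Pax5 by -0.70 ± 0.27 (0.268), Cr2 by -0.33 ± 0.21 (0.449), Cd79b by 0.21 ± 0.15 (0.495) and Cd79a by -0.06 ± 0.61 (0.972). Jchain was not above background in either uMT array, so its value is no measured fold, and it was -0.46 without the uMT MLN array and -2.66 without the uMT PLN array. Pax5 was -0.03 and -1.38 without these arrays.

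Between uMT and AID KO total cells the differences were -2.03 ± 0.50 for Jchain (SE, adjusted p = 0.212), -0.96 ± 0.31 for Pax5 (0.315), -0.87 ± 0.25 for Cr2 (0.256), -0.27 ± 0.17 for Cd79b (0.595) and -0.07 ± 0.70 for Cd79a (0.984). Without uMT MLN, Jchain was at -0.92, Pax5 at -0.28 and Cr2 at -0.59, and without uMT PLN they were at -3.13, -1.64 and -1.15. Ms4a1 did not enter this fit. With no filter on dim probes it was the 1 gene of the 9 that passed here, at -2.56 ± 0.20 (SE; limma, adjusted p = 0.0438). Neither uMT array was well above background, nor was AID KO PLN (-5.50), so AID KO MLN was the only called array behind this value. The bound was at least 1.21-fold lower in uMT (measured means -7.19 and -4.63).

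AID KO versus WT total cells, which shares its WT arrays with the first comparison, gave 0.47 ± 0.15 for Cd79b (SE, adjusted p = 0.231), 0.54 ± 0.21 for Cr2 (0.334), 0.26 ± 0.27 for Pax5 (0.762), 0.47 ± 0.43 for Jchain (0.723) and 0.02 ± 0.61 for Cd79a (0.995). On matched slides, AID KO minus WT was 0.58 in PLN and 0.28 in MLN for Cd79b, against 0.22 and 0.04 between the WT arrays of those sites. For Cr2 it was 0.58 in PLN and 0.67 in MLN, against 0.68 and 0.34. In naive cells, uMT minus AID KO was -0.41 ± 0.17 for Cd79b (SE, adjusted p = 0.584), -0.46 ± 0.31 for Pax5 (0.837), 0.53 ± 0.25 for Cr2 (0.646) and -0.22 ± 0.50 for Jchain (0.999).

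The array that held the most of these transcripts was the one labelled AID KO MLN, a label in doubt, with 5 of the 9 well above background (Cd79b, Cr2, Pax5, Jchain and Ms4a1). The others held 2 in uMT MLN, 3 in uMT PLN, 3 in AID KO PLN, 3 in each WT MLN array, and 2 and 4 in the WT PLN arrays. In naive cells there were 3 in each uMT array, 4 in AID KO Sca1p and 3 in AID KO Sca1m. AID KO MLN also led for the other B cell genes. Of 49 such genes on a list of surface and receptor genes and a list of transcription factors and signalling genes, 29 were called on all arrays, 6 on none and 14 on some. AID KO MLN held 9 of these 14 (64.3%), WT MLN 5 and 7, uMT PLN 6, AID KO PLN 5, uMT MLN 4, each WT PLN array 4, and the naive arrays 1 or 2.

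Over all 4106 named genes that varied in detection, AID KO MLN held 43.7%, and the arrays ranged between 19.4% (uMT MLN) and 50.6% (uMT PLN). AID KO MLN was thus not the array with the most detected genes, and the uMT MLN array had the fewest. These counts describe single arrays and have no test.

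**Figure D4:**
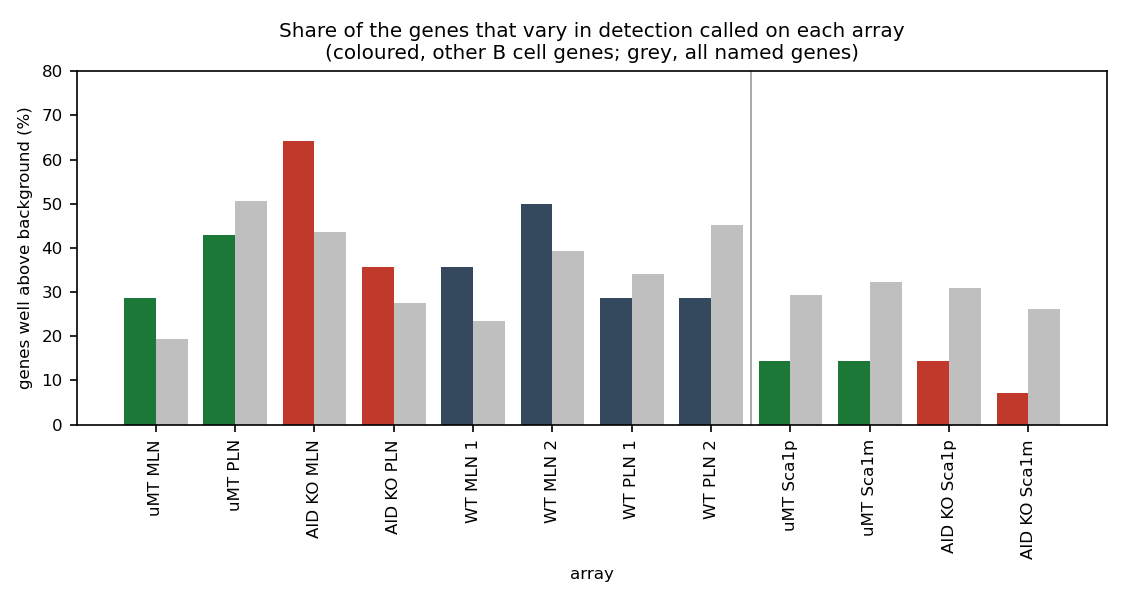
Share (y axis, %) of the 14 other B cell genes that varied in detection (coloured bars; uMT green, AID KO red, WT slate) and of all 4106 such named genes (grey) that were well above background on each array (x axis). AID KO MLN reached 64.3% of the B cell genes and 43.7% of all, and the naive arrays held at most 14.3% of the B cell genes.

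Several further genes of the lists were called on AID KO MLN and nowhere else. They were Fcmr, the IgM Fc receptor (-4.50), Mzb1, a plasma cell chaperone (-4.65), Rgs13, a regulator of G protein signalling in germinal centre B cells (-3.00), and H2-Aa, a class II chain (-4.26). Of all 1689 named genes called on a single array, AID KO MLN held 6.8%. Of the 5 such genes on the 2 other B cell lists it held 1. The arrays uMT MLN, uMT PLN, WT MLN replicate 1 and WT PLN replicate 2 also held 1 each. The 5 class II genes and the 6 plasma cell and germinal centre genes that varied were all called on AID KO MLN. The other total-cell arrays held 2 to 4 and 1 to 4 of these.

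Not every B cell gene followed this order. Fcgr2b, the inhibitory Fc receptor, was called only in uMT MLN (-3.50) and uMT PLN (-4.07), and it is also expressed by myeloid and stromal cells. Its difference from WT was 2.73 ± 0.32 (SE; limma, adjusted p = 0.073). Fcer2a was called only in uMT MLN, and Mef2c only in uMT PLN. Bcl11a was called only in WT MLN replicate 1 (-1.63), and Pik3ap1 only in WT PLN replicate 2 (-4.47). Vpreb3, a pre-B cell receptor partner, was not called in uMT total cells (-6.05 and -5.28 in MLN and PLN) and was called in both AID KO total arrays (-3.49 and -4.60) and in 3 of 4 WT arrays, but also in AID KO Sca1m and uMT Sca1m.

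In the tests, 0 of 23 surface and receptor genes and 0 of 15 transcription factor and signalling genes passed in any of the 6 comparisons (limma), with 4 to 8 and 1 to 4 at an unadjusted p under 0.05. Over all features 8.24% to 17.6% were at such a p. The surface and receptor list, at 17.4% to 34.8%, lay above the share of all features in each comparison. In uMT versus WT its genes at such a p went both ways. Fcrl1 (-0.44) and Vpreb3 (-1.19) were lower in uMT. Higher in uMT were Cd1d1 (0.47), Cd81 (0.47), Fcgr2b (2.73), Gpr183 (0.41), Ly86 (0.72) and Tnfrsf13c (0.24). The transcription factor and signalling list, at 6.67% (1 of 15) to 26.7%, lay below the share of all features in some comparisons and above it in others. No list was tested as a whole. In uMT versus WT the median differences of these lists were 0.10 and -0.12, with -0.01 over all features. In uMT versus AID KO total cells they were 0.04 and -0.23, with -0.02 over all features. MHC class II genes had a median of -0.73 in naive uMT versus AID KO cells (8 tested, 0 passed, 5 at an unadjusted p under 0.05), where all features had 0.00, and 0.41 in MLN versus PLN.

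Markers of other cells differed between arrays too, with none passing. Of 7 erythroid markers 2 were tested, with a median of 3.57 in MLN versus PLN (limma, lowest adjusted p = 0.0706) and of 1.95 in uMT versus WT, and Hba-a1, a haemoglobin chain, ranged between -3.66 and 2.09 over the arrays with its highest value in uMT MLN. Dendritic cell, macrophage and stromal lists had medians of -0.07, 0.11 and -0.35 in MLN versus PLN. Of their genes 0 of 5, 0 of 4 and 0 of 4 passed, with 0 at an unadjusted p under 0.05. Of all features, 0.109% passed in that comparison and 9.1% were at such a p (limma). On the dendritic cell list, Ccr7 (6.79 to 7.58), Siglech (5.26 to 7.92) and Bst2 (3.33 to 4.59) were bright on all 12 arrays. The median of that list is thus no measure of dendritic cells in these samples. In uMT versus WT the macrophage list had a median of -0.39, with 0 of 4 passing and 3 at an unadjusted p under 0.05. The neutrophil list had a median of -0.40, with 0 of 4 passing and 2 at such a p. Of all features, 0.035% passed there and 17.6% were at such a p (limma). Ctla4, an inhibitory receptor on the CD4 T cell list, differed by 1.28 ± 0.27 in uMT versus WT (SE; limma, adjusted p = 0.141) and by 2.38 ± 0.32 in uMT versus AID KO total cells (SE; limma, adjusted p = 0.0607). Cd4 was well above background on all arrays, at -0.36 to 1.88. Their part in the values of the B cell transcripts was not tested.

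The genes most like Cd79a over the 8 total-cell arrays were Ltbp2 (Pearson r = 0.936) and Evi5l (0.927), among 3254 candidates that moved by at least 1 log2 unit. Cd79a was above background on 1 of these 8 arrays, so that one array sets the order. For Jchain, a comparison added after the values were seen, the highest were Pmepa1 (0.959), Gm36855 (0.956) and Fcrl1 (0.939), with H2-Ab1, a class II chain, at 0.912. The 8 arrays share 2 slides, and these values are descriptions.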

How the data were processed

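RNA of 12 samples of CD8+ T cells was measured on 1-colour arrays. Per the file headers, the deposited scanner files hold the intensity of each spot from Agilent Feature Extraction 11.0.1.1, subtracted for background and not normalized between arrays, and other deposited values are flags of 0 or 1 for spots well above background, outlying or saturated. Log2 normalized values stand in the deposited series matrix, which was used as an alternative. Its lowest correlation with the scanner values of an array rounded to 1.0, which does not tell how it was normalized.

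Log2 processed intensities were shifted to each array's 75th percentile, without outlier-flagged spots (61 to 342 per array). Probes were named through their accession and RefSeq's gene table for GRCm38.p6, which gave 32994 of 56605 probes 1 symbol, 0 several and 23611 none. The brightest probe well above background on at least 2 arrays stood for a gene, which left 25738 features. Each probe of the 9 genes has 1 spot.

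Limma 3.58.1 in R 4.3.3 fitted all 12 arrays with site, slide and genotype terms for total cells and genotype and Sca1 terms for naive cells, leaving 4 residual degrees of freedom. Two-sided p-values were adjusted by Benjamini-Hochberg across all features, with a threshold of 0.05. Tables were made with Python 3.11.15, pandas 2.3.3 and numpy 2.4.6, and the fit was tested on simulated data. The alternatives tried were normexp (offset 50), quantile normalization, the deposited table, no dim-probe filter or a minimum of 6 arrays, the mean of a gene's probes, no slide term, a matched pair block and leaving out each array. Normexp was run on the median signal, since no mean signal column is among the columns used. The number of arrays limits the precision. The genes, lists and rules were chosen with earlier results of these data known. Genes named include the 9, some of the list genes called on few arrays, and those most like Cd79a over the total-cell arrays. Some genes that the rule covers, and the values behind the check of the AID KO label, are not reported here and these genes are left out of list counts.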

Additional observations from a re-analysis of the deposited data

Results flagged for a closer look

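Cr2 differed between uMT and AID KO by -0.87 in total cells and by 0.53 in naive cells, and the naive value was -0.05 with the mean of its probes. The difference between these effects, a term chosen after the data were seen, was -1.40 ± 0.35 (SE, unadjusted p = 0.00698, limma) and did not pass adjustment (adjusted p = 0.216). It ranged between -1.86 and -0.38 over the alternatives, and a second Cr2 probe did not follow the first.

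The probes of Ms4a1 and Fcrla, outside the tests, gave signal above background on 1 array each and on no uMT array with a value. The Fcrla spot on uMT Sca1p was left out for its outlier flag. Other genes on the B cell lists were called on a uMT array alone, Fcer2a in MLN (-3.11) and Mef2c in PLN (-4.88). Ms4a1 stood at -3.77 on the AID KO MLN array, and Fcrla at -4.13 on the AID KO PLN array. AID KO here is the label, which a check went against. Each is 1 spot on 1 array, so neither has a replicate.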

How the results depend on the processing

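Of 438 alternative values for 24 differences of the B cell transcripts, 425 kept their direction and their side of the threshold, 11 reversed and 2 came to pass. The count of transcripts passing stayed at 0 except that it was 1 in uMT versus AID KO total cells with no filter on dim probes (Ms4a1) and lay between 0 and 1 in MLN versus PLN with 1 array left out (Jchain, 2.46 to 3.40). Cr2 in naive uMT versus AID KO, at 0.53 as reported, was -0.05 with the mean of its probes, and Cr2 in Sca1p versus Sca1m was 0.09 with normexp and 0.25 with the mean of its probes. With 1 array left out, Cr2 in Sca1p versus Sca1m lay between -0.61 and 0.30, Cd79b there between -0.23 and 0.40, and in MLN versus PLN Cr2 lay between -0.22 and 0.03 and Pax5 between -0.54 and 0.02. The cause was not tested.

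Normexp narrowed the highest minus lowest level of dim probes, to 1.11 for Cd79a (4.49 otherwise), 0.86 for Ms4a1 (3.84), 0.68 for Pax5 (2.94), 0.98 for Fcrla (3.47) and 1.18 for Jchain (4.34), since it adds an offset to every signal. Features passing over the alternatives numbered 0 to 67 in uMT versus WT (9 as reported), 1 to 166 in uMT versus AID KO total (79), 10 to 205 in naive cells (91), 1 to 461 in AID KO versus WT (226), 2 to 60 in MLN versus PLN (28) and 0 to 175 in Sca1p versus Sca1m (4). A block of arrays matched by site and slide left Jchain in uMT versus WT at -1.33 (limma, adjusted p = 0.436). Most of these transcripts lie at or below background, where a level sets only a bound.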
